A study of Mus musculus with 38 samples.

Results

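The Notch pathway was followed in sorted mouse breast tumor cells through 10 of its genes: the receptors Notch1, Notch2, Notch3 and Notch4, the ligands Jag1, Jag2, Dll1 and Dll4, and the target genes Hes1 and Hey1. The genes were taken by name, as every probe whose gene name in the scanner output is that of a member. The 10 genes are read by 14 probes, among 28786 gene names and 41174 probes on the array. In Notch signaling a ligand on the surface of a cell binds a receptor on its neighbor, and the receptor is then cut by an Adam protease and by the gamma-secretase complex. The freed intracellular domain enters the nucleus, where it joins Rbpj and Mastermind-like proteins on genes such as Hes1 and Hey1, which themselves encode repressors of transcription. In the mammary gland the pathway is known for its part in luminal cell fate, and truncated, active Notch receptors can cause mammary tumors in mice.

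RNA came from GFP-positive cells sorted from tumors of the MMTV-PyMT model, in which the mouse mammary tumor virus promoter drives the polyoma middle T oncogene mainly in mammary epithelium. Donor mice also carried actin-GFP, whose promoter is active in nearly all cell types, so GFP marks cells of donor origin and not epithelium as such. Hyperplasias of pubertal female donors had been grafted into the cleared mammary fat pads of young female FVB/n hosts without transgenes, and both transgenes are shared by the tumors of every group. Gene expression was read on 38 two-color arrays in an experiment on chemotherapy and another on tumor progression.

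The chemotherapy experiment held 6 untreated, 6 residual and 4 relapsed tumors. Treatment with docetaxel, doxorubicin and cyclophosphamide began 2 months after transplantation. Residual tumors, labeled as regressed, were taken 10 days after dose 1, and relapsed tumors, labeled as resistant, 10 days after dose 4. The progression experiment held 5 adenomas from outgrowths of 5 weeks, 6 carcinomas from outgrowths of 18 weeks, 6 samples of disseminated cells and 5 samples of lung metastases. Each disseminated sample was pooled from the lungs of 3 to 6 mice with outgrowths of 18 weeks, and metastases were sorted from lungs after the primary tumor had been cut out. The labels do not tie the samples of a group to separate mice, so p-values measure the spread between samples.

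Every value is a log2 ratio of the Cy5-labeled sample to a Cy3-labeled Universal mouse reference on the same array, so a level of 1 is 2 times the reference and levels are not compared between genes. The RNA of the progression experiment had been amplified in 2 rounds, so each experiment was normalized and tested on its own. A gene passed the test when limma's moderated test gave an adjusted p below 0.05 over all genes. In bulk RNA, fewer cells of a type and less RNA per cell cannot be told apart. The sample channel was well above background at 50.5 to 64.3% of spots in the chemotherapy experiment and at 48.4 to 78.9% in the progression experiment.

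The sorted cells were checked against markers before the members were read. The mean log2 ratio of 10 luminal epithelial genes (such as Krt8, Krt18 and Epcam) lay between 4.35 and 4.92 in every array of the chemotherapy experiment and between 3.03 and 3.76 in the adenomas. Carcinomas 1 to 5 reached 3.39 to 4.01, but carcinoma 6 only 2.39, and metastases 4 stood at 0.43 against 3.65 to 4.78 in the other metastases. In disseminated cells the list ran from 0.35 (replicate 3), 0.62 (replicate 5) and 1.25 (replicate 2) up to 3.65 (replicate 6). The mean of 10 macrophage genes, with Csf1r and Cd68 among them, was -0.46 to 0.06 in adenomas and -0.93 to 0.38 in carcinomas 1 to 5. It was 4.89 in carcinoma 6, 2.98 to 4.96 in disseminated cells and 0.65 to 5.26 in metastases, highest in metastases 4. Carcinoma 6 and metastases 4 therefore stand apart from their groups, and the luminal markers are low in disseminated samples 2, 3 and 5.

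The probes that carry the results are 60-mers, and their positions are those written in the scanner output for mouse build mm7. Notch1 is read by a pair of adjacent probes on the minus strand, chr2:26466563-26466621, spotted 10 times per array, and chr2:26466621-26466680. Notch2 is read by 3 probes on the plus strand, chr3:98018506-98018565 (probe 1), chr3:98020144-98020203 (probe 2) and chr3:98021215-98021274 (probe 3), within 2769 bases. Jag1 is read at chr2:136822550-136822609 and by a second probe at chr2:136824059-136824118 that was not well above background on any array. Notch3 (chr17:30311822-30311881), Notch4 (chr17:32669395-32669454), Jag2 (chr12_random:2920858-2920917), Dll1 (chr17:13604553-13604612, spotted 10 times), Dll4 (chr2:119075892-119075951), Hes1 (chr16:29738743-29739038) and Hey1 (chr3:8669867-8669926) have 1 probe each. Whether a probe lies in coding sequence or in an untranslated region was not worked out, since no annotation of this build was used. Where a gene has several probes, the brightest over the experiment stands for it: the first of the Notch1 and Jag1 probes above and Notch2 probe 3. Over its 10 spots the log2 ratio of Notch1 had a median SD of 0.06 in the chemotherapy and 0.04 in the progression experiment, and that of Dll1 of 0.08 and 0.05, well below the spread between samples given next.

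To show what lies before the genes whose levels moved most often, the 250 bases upstream of the start of Notch1, Notch2 and Jag1 are printed from RefSeq, build GRCm38.p6, each on the gene's own strand with CG dinucleotides in capitals.
Notch1 (chr2:26503823-26504072, minus strand): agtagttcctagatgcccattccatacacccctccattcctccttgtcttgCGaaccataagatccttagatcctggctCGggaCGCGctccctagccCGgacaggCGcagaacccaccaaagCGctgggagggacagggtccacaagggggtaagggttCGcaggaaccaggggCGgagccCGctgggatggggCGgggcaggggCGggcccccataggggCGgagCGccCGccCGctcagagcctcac
Notch2 (chr3:98013288-98013537, plus strand): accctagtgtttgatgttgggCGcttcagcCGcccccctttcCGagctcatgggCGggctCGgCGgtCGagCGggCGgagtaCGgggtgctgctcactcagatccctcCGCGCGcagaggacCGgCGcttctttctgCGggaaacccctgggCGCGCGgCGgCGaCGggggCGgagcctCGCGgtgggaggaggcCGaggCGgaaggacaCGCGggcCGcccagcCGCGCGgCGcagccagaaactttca
Jag1 (chr2:137116521-137116770, minus strand): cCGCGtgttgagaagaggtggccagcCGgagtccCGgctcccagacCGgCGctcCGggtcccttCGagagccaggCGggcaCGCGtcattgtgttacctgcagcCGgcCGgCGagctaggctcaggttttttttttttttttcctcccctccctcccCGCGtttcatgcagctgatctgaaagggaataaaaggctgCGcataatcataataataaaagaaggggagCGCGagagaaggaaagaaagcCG
The 3 windows hold 16, 34 and 20 CG dinucleotides, against a median of 6 over 32851 RefSeq promoters, of which 74.6, 96.5 and 82.1% hold fewer. The letters TGGGAA, the core of the Rbpj site, were searched on both strands in the RefSeq promoter windows given for 8 of the 10 members (all but Hes1 and Hey1, 9 windows in all). They occur in 0 of these 9 windows and in 25.6% of all promoters, and the longer GTGGGAA, which contains them, in 0 of 9 and in 6.38%.

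The chemotherapy experiment asked whether Notch genes differ in the tumor cells that survive treatment or regrow from it. No member passed the test in any of the 3 comparisons. Between residual and untreated tumors 0 of 10 members and 0.198% of all genes passed, between relapsed and untreated tumors 0 of 10 and 0.00695%, and between relapsed and residual tumors 0 of 10 and 0.271%. At an unadjusted p below 0.05 the counts were 0, 1 and 2 of 10 members, against 9.08, 7.65 and 7.75% of all genes, and each of the other settings run also gave 0 members after adjustment. All members but Dll4 were well above background on every array of this experiment.

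**Figure D1:**
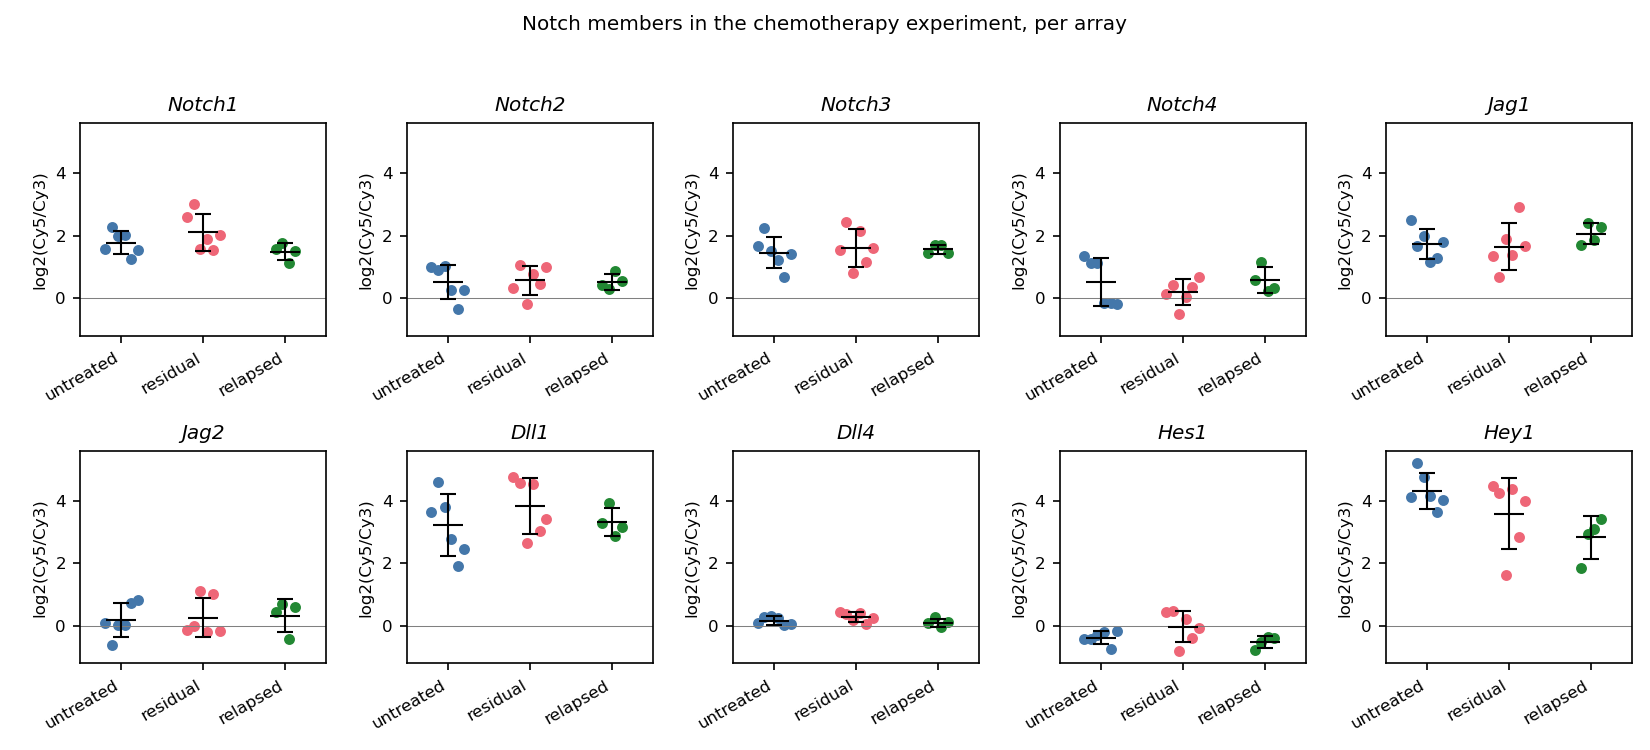
Log2 ratio to the reference (vertical axis) of the 10 members in untreated (n = 6), residual (n = 6) and relapsed (n = 4) tumors. Each point is an array, the wide bar is the group mean and the whiskers are 1 SD. Only the relapsed tumors of Hey1 lie wholly below the untreated ones, and no member passed the test.

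Among the receptors, Notch1 was highest in residual tumors. Its log2 ratio ran from 1.53 to 3.02 (median 1.97) in residual tumors and from 1.27 to 2.28 (median 1.77) in untreated tumors, and was 1.58, 1.76, 1.13 and 1.5 in relapsed tumors 1 to 4. Residual tumors 1 and 2, at 2.60 and 3.02, lay above all untreated tumors, and the other 4 overlapped with them. Residual tumors averaged 2.11 ± 0.59 (SD, n = 6) and relapsed tumors 1.49 ± 0.26 (SD, n = 4), a log2 change of -0.62 (95% interval -1.19 to -0.06, limma adjusted p = 0.585). From untreated to residual tumors the change was 0.34 (95% interval -0.17 to 0.84, limma adjusted p = 0.721). The adjacent Notch1 probe gave -0.77 and 0.37 for the same 2 contrasts. On slide 2, the only slide that untreated and residual tumors shared, the difference rests on residual tumors 1 and 2 against untreated tumor 1 and was 1.25.

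Notch2 and Notch3 differed little between the groups. Notch2 averaged 0.52 ± 0.55 without treatment (SD, n = 6), 0.56 ± 0.48 after dose 1 (n = 6) and 0.52 ± 0.25 after dose 4 (n = 4), and Notch3 1.46 ± 0.51, 1.62 ± 0.61 and 1.57 ± 0.15. The 95% interval of the change between relapsed and untreated tumors was -0.58 to 0.59 for Notch2 and -0.52 to 0.73 for Notch3. Changes within these intervals, in either direction, are not excluded.

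Notch4, best known from endothelium, was uneven within the untreated group. It stood at 1.36, 1.12 and 1.12 in untreated tumors 1 to 3 and at -0.16, -0.15 and -0.20 in untreated tumors 4 to 6. The residual tumors (-0.52 to 0.69) and the relapsed tumors (0.24 to 1.15) fell between or overlapped with these. The macrophage list separated the same untreated tumors, with 1.32, 1.69 and 1.16 in replicates 1 to 3 against -0.79, -0.88 and -0.48 in replicates 4 to 6, while the endothelial list did not (-0.03, 0.81 and 0.35 against 0.14, 0.09 and 0.32). Dll1 (3.66, 4.63 and 3.82 against 2.80, 1.93 and 2.48) and Notch2 (0.99, 0.91 and 1.04 against 0.27, -0.34 and 0.26) were also higher in replicates 1 to 3. In the treated groups the match of Notch4 with the macrophage list was partial. Relapsed tumor 3 had the highest macrophage mean of its group (0.24) and the lowest Notch4 (0.24). In residual tumors 1 to 6 Notch4 was 0.13, 0.42, -0.52, 0.05, 0.35 and 0.69. The macrophage means of these tumors were 0.43, 0.97, -0.92, -0.75, -0.55 and -0.29. Residual tumors 3 and 4 were thus lowest in both, while residual tumor 6 had the highest Notch4 at a macrophage mean below residual tumors 1 and 2. The part of macrophages in the level of Notch4 was not tested. With the macrophage list as a covariate the members past the test were still 0 in all 3 comparisons.

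Of the ligands, Dll1 had the widest spread. It ran from 1.93 to 4.63 (median 3.23) in untreated and from 2.67 to 4.78 (median 4.0) in residual tumors, and was 3.30, 3.95, 2.88 and 3.17 in relapsed tumors. Residual tumors 1, 2 and 4 lay at 4.56 or higher, close to untreated tumor 2 at 4.63, and residual tumors 3, 5 and 6 lay within the untreated range. The log2 change from untreated to residual tumors was 0.62 (95% interval -0.34 to 1.58, limma adjusted p = 0.729). Jag1, a ligand of the Serrate type, averaged 1.73 ± 0.49 without treatment, 1.65 ± 0.75 after dose 1 and 2.06 ± 0.34 after dose 4. Jag2 averaged 0.19 ± 0.54, 0.27 ± 0.62 and 0.33 ± 0.52 in the same order. Dll4, a ligand of sprouting vessels, was well above background in only 2 of 6, 3 of 6 and 1 of 4 arrays, and its ratios of -0.05 to 0.43 are near the limit of the measurement.

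Hes1 ran from -0.75 to -0.17 (median -0.36) in untreated tumors and from -0.82 to 0.47 (median 0.08) in residual tumors, and was -0.79, -0.53, -0.35 and -0.38 in relapsed tumors. Residual tumors 1, 2, 4 and 6 lay above every untreated tumor, while residual tumor 3 lay below all of them. The change from residual to relapsed tumors was -0.49 (95% interval -0.94 to -0.04, limma adjusted p = 0.594).

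Hey1 was lowest in relapsed tumors. It ran from 3.64 to 5.21 (median 4.14) in untreated and from 1.62 to 4.48 (median 4.13) in residual tumors, and was 1.86, 2.94, 3.11 and 3.44 in relapsed tumors. All 4 relapsed tumors lay below all 6 untreated tumors, the only member and comparison of this experiment without overlap. How many of all genes show no overlap was not counted, so this separation is description only. Of the residual tumors, 3 and 5 alone lay below the untreated ones. The log2 change from untreated to relapsed tumors was -1.48, a 2.79-fold lower level (95% interval -2.55 to -0.42, limma adjusted p = 0.421), and it did not pass the test. Its size depended on the arrays: it was -1.16 to -1.68 with each array left out in turn, and on slide 5, which holds relapsed tumors 3 and 4 and untreated tumor 6, it was -0.75. From residual to relapsed tumors Hey1 changed by -0.76 (95% interval -1.83 to 0.30, limma adjusted p = 0.783). As the member with the widest range of group means in this experiment, Hey1 was set against 13325 genes above background on every array. Dhrs3 (r = 0.908), Ints6l (r = 0.899) and Synj2 (r = 0.892) followed it most closely over the 16 arrays, which share slides and cell composition.

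The progression experiment asked how the same genes stand in adenomas, carcinomas, disseminated cells and metastases. Here 4 members passed the test in at least 1 comparison: Notch1, Notch2, Notch3 and Jag1. The passing members were 3 of 10 between carcinomas and adenomas (11.7% of all genes), 3 of 10 between disseminated cells and adenomas (20.6%), 2 of 10 between metastases and adenomas (28.6%), 2 of 10 between disseminated cells and carcinomas (26.6%), 3 of 10 between metastases and carcinomas (22%) and 1 of 10 between metastases and disseminated cells (13.1%). With 10 members these shares lie close to those of all genes, so the counts say nothing particular of the Notch genes, and the results are those of the single members. Adenomas and disseminated cells shared 3 slides and a scan day, and carcinomas and metastases shared 3 other slides and another day. Between groups of different days, slide and group cannot be told apart, and only disseminated cells against adenomas and metastases against carcinomas could be compared within slides. How many of all genes show no overlap between these groups was not counted either, so separations named below are description only.

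**Figure D2:**
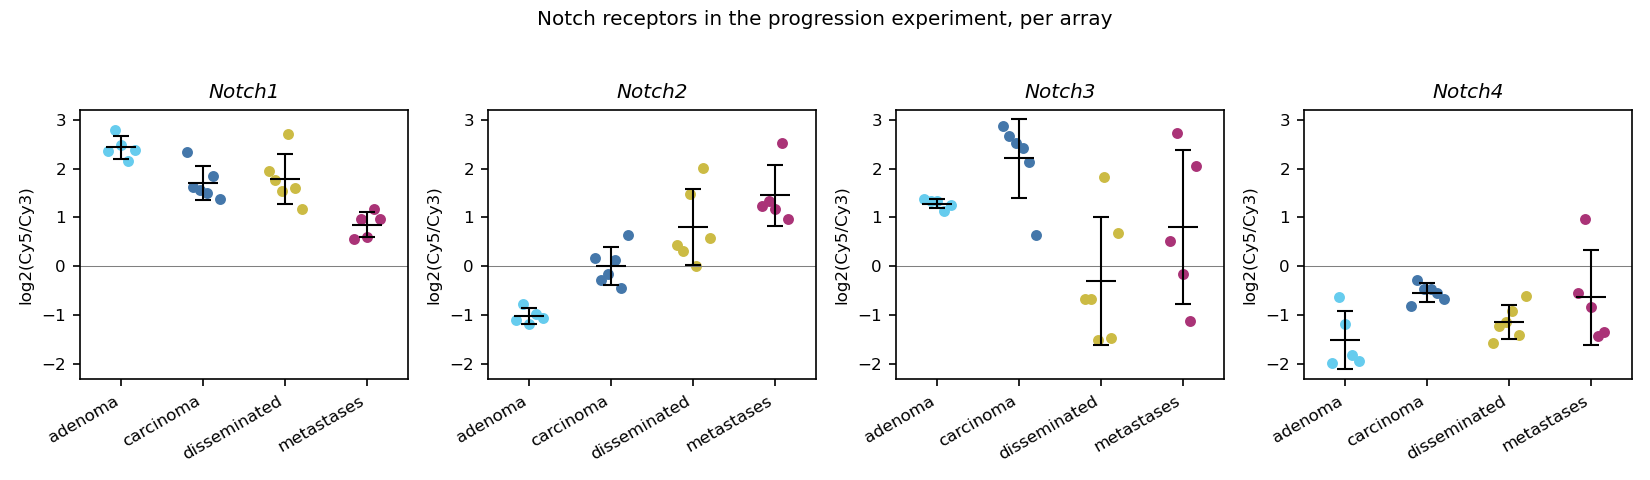
Log2 ratio to the reference (vertical axis) of the 4 Notch receptors in adenomas (n = 5), carcinomas (n = 6), disseminated cells (n = 6) and metastases (n = 5). Each point is an array, the wide bar is the group mean and the whiskers are 1 SD. Mean Notch1 was 2.43 in adenomas and 0.85 in metastases, mean Notch2 -1.02 and 1.45, and Notch3 was spread over more than 3 log2 units in disseminated cells and in metastases.

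Notch1 was highest in adenomas and lowest in metastases, groups that were scanned on different days. Its log2 ratio was 2.36, 2.79, 2.49, 2.15 and 2.38 in adenomas 1 to 5, ran from 1.38 to 2.33 (median 1.59) in carcinomas and from 1.17 to 2.71 (median 1.69) in disseminated cells, and was 0.56, 0.96, 0.60, 1.17 and 0.96 in metastases 1 to 5. All 5 metastases lay below all adenomas and all carcinomas, whereas 1 carcinoma and 1 disseminated sample overlapped with the adenomas. The log2 change of metastases was -1.58 against adenomas (a 3.0-fold lower level, 95% interval -2.05 to -1.11, limma adjusted p = 6.51e-05), -0.86 against carcinomas (adjusted p = 0.00816) and -0.94 against disseminated cells (adjusted p = 0.0073). Within the 3 slides that held both groups the difference between metastases and carcinomas was -0.79, -1.08 and -0.65. The call against carcinomas was lost with the macrophage list as a covariate (-0.70, adjusted p = 0.0912), and that against disseminated cells with only these 2 groups in the fit (adjusted p = 0.059) or without moderation (adjusted p = 0.0982).

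Carcinomas and disseminated cells held similar Notch1 levels, 1.71 ± 0.34 (SD, n = 6) and 1.79 ± 0.52 (SD, n = 6), a difference of 0.08 with a 95% interval of -0.35 to 0.51. Against adenomas they were lower by a log2 change of -0.73 (limma adjusted p = 0.0345) and -0.65 (adjusted p = 0.0395). These 2 calls are weak. For carcinomas the call was lost without adenoma 1, 2, 3 or 5 or carcinoma 2, 3, 4 or 6 (log2 changes of -0.75 to -0.64, adjusted p from 0.0506 to 0.0962). For disseminated cells it was lost without adenoma 1, 2, 3 or 5 or disseminated sample 2, 3, 5 or 6 (-0.67 to -0.52, adjusted p from 0.0541 to 0.1), and without normalization between arrays the changes were -0.33 for carcinomas (adjusted p = 0.479) and -0.03 for disseminated cells (adjusted p = 0.957). Both calls were also lost with the scanner's processed signals, with median centring, with the deposited ratios, with the mean of the probes and with the replicate block, and that of disseminated cells with only these 2 groups in the fit, without moderation or with either marker list as a covariate. The adjacent Notch1 probe fell by 0.81 from adenomas to metastases (adjusted p = 0.00954 over all probes), which is less than the 1.58 of the brighter probe, and did not pass in the other 5 comparisons.

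Notch2 was lowest in adenomas and highest in metastases on its brightest probe, again between groups scanned on different days. It was -1.10, -0.77, -1.19, -0.97 and -1.05 in adenomas, ran from -0.44 to 0.63 (median -0.02) in carcinomas and from 0.00 to 2.02 (median 0.51) in disseminated cells, and was 1.24, 1.33, 1.18, 2.53 and 0.98 in metastases. Every later sample lay above every adenoma, and every metastasis above every carcinoma. Against adenomas the log2 change was 1.02 in carcinomas (2.03-fold, limma adjusted p = 0.0417), 1.82 in disseminated cells (3.54-fold, adjusted p = 0.00113) and 2.47 in metastases (5.53-fold, 95% interval 1.77 to 3.16, adjusted p = 4.48e-05). Metastases exceeded carcinomas by 1.44 (adjusted p = 0.00358), and by 1.15, 1.89 and 1.23 within the 3 shared slides. Metastases and disseminated cells did not differ beyond their spread (0.64, 95% interval -0.02 to 1.31). Metastases 4 and carcinoma 6, with the highest macrophage means of their groups, also had the highest Notch2 of their groups (2.53 and 0.63). In metastases 1 to 5 the macrophage means were 3.59, 0.65, 4.495, 5.26 and 0.92, beside the Notch2 levels above. Metastases 1, 2 and 3 thus had similar Notch2 at unlike macrophage means. The part of macrophages in Notch2 was not tested beyond the fits that follow. With the macrophage list as a covariate the calls of disseminated cells against adenomas (1.10, adjusted p = 0.31) and of metastases against carcinomas (1.02, adjusted p = 0.0656) were lost, and that of metastases against adenomas was kept (1.92, adjusted p = 0.00317). The macrophage means of adenomas and disseminated cells do not overlap, so the call lost between them cannot separate the list from the group.

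The other Notch2 probes did not follow. Probe 2 was higher in disseminated cells, at 2.32 ± 0.78 (SD, n = 6), than in adenomas at 1.04 ± 0.39 (SD, n = 5), by 1.28 (limma adjusted p = 0.014 over all probes). In metastases, however, probe 2 stood at 1.06 ± 0.76 (SD, n = 5), a change of 0.02 from adenomas (95% interval -0.72 to 0.77) against 2.47 on probe 3, and it fell from disseminated cells to metastases by 1.26 (adjusted p = 0.0197). Probe 1 varied between 0.39 and 0.62 in group means and passed in no comparison. With the mean of the 3 probes the changes of Notch2 were 0.33 between carcinomas and adenomas and 0.47 between metastases and carcinomas, and neither passed the test. Against adenomas the mean of the probes was still higher in disseminated cells (1.0, adjusted p = 0.00465) and in metastases, where the change shrank from 2.47 to 0.80 (adjusted p = 0.0149). Between metastases and adenomas probe 1 changed by -0.08 and probe 2 by 0.02. The rise of Notch2 in metastases thus rests on probe 3 alone, also in the mean of the probes. The call of carcinomas against adenomas was also lost with median centring, without normalization between arrays, with the deposited ratios and with the replicate block (0.98 to 1.14, adjusted p from 0.05 to 0.0932), and without any single adenoma, without carcinoma 1, 2, 3, 4 or 6 or without metastases 1 (0.90 to 1.08, adjusted p from 0.0501 to 0.0947).

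**Figure D3:**
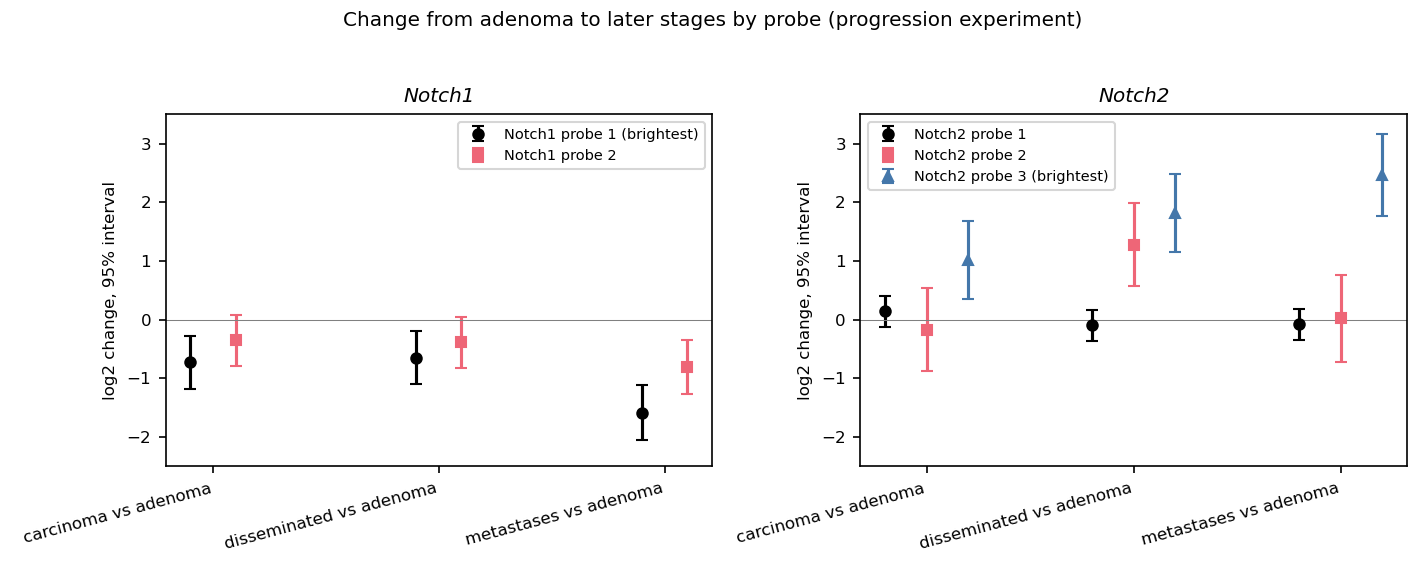
Log2 change from adenomas (vertical axis) of each probe of Notch1 and Notch2 in carcinomas, disseminated cells and metastases, with 95% intervals from limma. Both Notch1 probes lie below 0, whereas in metastases Notch2 probe 3 stands at 2.47 and Notch2 probes 1 and 2 at -0.08 and 0.02.

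Notch3, a receptor that is also known from pericytes and vascular smooth muscle, was highest in carcinomas and split within the later groups. It was 1.38, 1.33, 1.34, 1.13 and 1.25 in adenomas, the tightest group of any receptor, and ran from 0.64 to 2.87 (median 2.48) in carcinomas, where only replicate 6 was under 2.13. In disseminated cells it stood at -0.67, -0.67, -1.51, 1.83, -1.46 and 0.68 in replicates 1 to 6, and in metastases at 0.51, 2.72, -0.16, -1.12 and 2.05. Disseminated sample 4 and metastases 2 and 5 thus lay above every adenoma, disseminated sample 6 just above carcinoma 6, and the other 7 samples below every primary tumor.

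The mean fell from 2.21 ± 0.81 (SD, n = 6) in carcinomas to -0.30 ± 1.31 (SD, n = 6) in disseminated cells, a log2 change of -2.52 or 5.72-fold (95% interval -3.78 to -1.25, limma adjusted p = 0.00497), and no other comparison of Notch3 passed. Disseminated cells and carcinomas were scanned on different days, so slide and group cannot be told apart here. The luminal epithelial list moved with Notch3 in part of the arrays. Its means in the arrays with the lowest Notch3, disseminated samples 3 and 5 and metastases 4, were 0.35, 0.62 and 0.43. Carcinoma 6 was the lowest carcinoma for both. Metastases 1 and 3, however, had low Notch3 at luminal means of 3.77 and 3.65, within the range of carcinomas 1 to 5. Disseminated sample 6 had a higher luminal mean (3.65) than disseminated sample 4 (2.52) but lower Notch3. With the luminal list as a covariate the change of Notch3 was -1.08 (adjusted p = 0.111), and with the macrophage list -0.71 (adjusted p = 0.53). Among 13823 genes above background on every array, Igsf3 (r = 0.951), Ihpk2 (r = 0.95) and Ica1l (r = 0.949) followed Notch3 most closely over the 22 arrays, which share slides and cell composition.

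Notch4 was dim in adenomas, where 2 of 5 arrays were well above background, and passed in no comparison. It was -1.98, -0.63, -1.18, -1.81 and -1.94 in adenomas and ran from -0.81 to -0.27 in carcinomas, from -1.56 to -0.61 in disseminated cells and from -1.43 to 0.97 in metastases. The carcinomas overlapped with the adenomas through adenoma 2, and the log2 change of 0.97 between them (limma adjusted p = 0.0639) lay just outside the threshold. Its size depended on the processing, from 0.61 without normalization between arrays (adjusted p = 0.363) to 2.17 with the scanner's processed signals (adjusted p = 0.0197). It also passed with median centring, the replicate block, only these 2 groups in the fit, no moderation or either marker list as a covariate (adjusted p from 0.0203 to 0.049). With single arrays left out it ran from 0.85 (without adenoma 1, adjusted p = 0.134) to 1.19 and passed only without adenoma 2 or metastases 2.

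**Figure D4:**
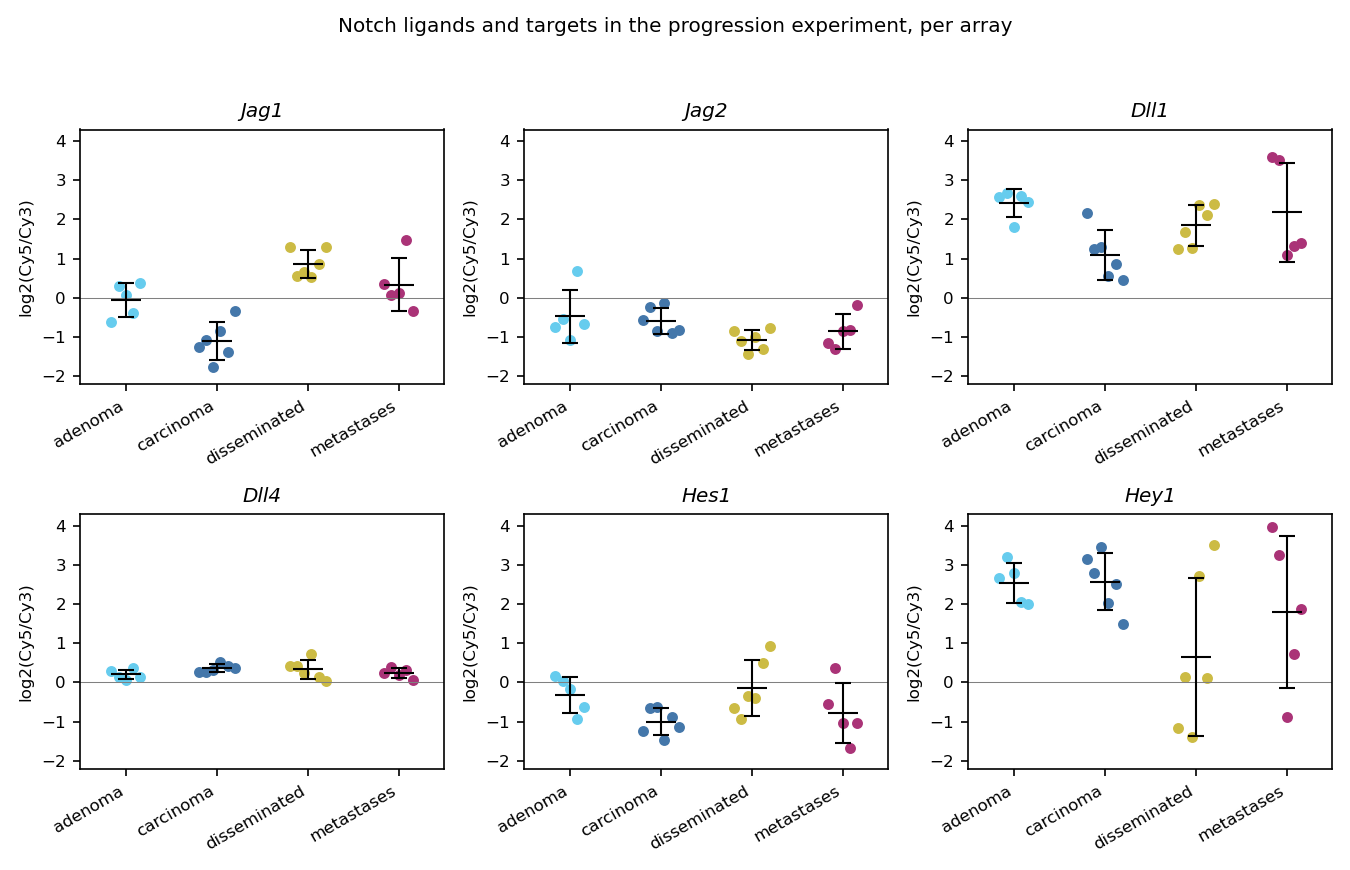
Log2 ratio to the reference (vertical axis) of the 4 ligands and 2 targets in adenomas (n = 5), carcinomas (n = 6), disseminated cells (n = 6) and metastases (n = 5). Each point is an array, the wide bar is the group mean and the whiskers are 1 SD. Jag1 is lowest in carcinomas, with a mean of -1.11, and highest in disseminated cells, with a mean of 0.86, and Hey1 has its widest spread in disseminated cells and metastases.

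Of the ligands, Jag1 alone passed the test, and it was lowest in carcinomas. It was -0.63, 0.30, 0.06, -0.39 and 0.37 in adenomas, ran from -1.76 to -0.33 (median -1.17) in carcinomas and from 0.52 to 1.29 (median 0.75) in disseminated cells, and was 0.36, 0.07, 0.11, 1.48 and -0.34 in metastases. All 6 disseminated samples lay above all adenomas and all carcinomas, and only carcinoma 6 reached the range of the adenomas or metastases. Disseminated cells exceeded carcinomas by a log2 change of 1.97 (3.93-fold, 95% interval 1.40 to 2.55, limma adjusted p = 9.15e-05) and adenomas by 0.92 (adjusted p = 0.0299). Disseminated cells and carcinomas were scanned on different days, so slide and group cannot be told apart between them. Metastases exceeded carcinomas by 1.45 (2.73-fold, adjusted p = 0.00191), and by 0.86, 2.43 and 0.92 within the 3 shared slides.

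Carcinomas lay below adenomas in Jag1 by a log2 change of -1.05 (limma adjusted p = 0.0242), a call lost without adenoma 2, 3 or 5 or carcinoma 3 (-1.02 to -0.92, adjusted p from 0.0558 to 0.0667). The call of disseminated cells against adenomas was lost without adenoma 1 or 4 or disseminated sample 1, 5 or 6 (0.78 to 0.92, adjusted p from 0.0542 to 0.0767). Metastases 4 and carcinoma 6 had the highest Jag1 of their groups, 1.48 and -0.33, and the highest macrophage means, 5.26 and 4.89. Other arrays did not follow this order. Metastases 3, at a macrophage mean of 4.495, had the median Jag1 of its group (0.11), and metastases 2, at 0.65, was close to it. Carcinoma 6 had less Jag1 than adenomas 2, 3 and 5, whose macrophage means were -0.28, -0.46 and 0.06. With the macrophage list as a covariate the change between disseminated cells and adenomas was 0.04 (adjusted p = 0.979), with the luminal list 0.62 (adjusted p = 0.225) and with the replicate block 0.80 (adjusted p = 0.0733). The macrophage means of disseminated cells and adenomas do not overlap, so the value with that list cannot separate the list from the group. With the macrophage list the changes of disseminated cells and of metastases against carcinomas still passed.

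Dll1, which was the ligand with the widest range of group means after Jag1, was highest in adenomas and in part of the metastases. It was 2.57, 2.68, 1.80, 2.61 and 2.45 in adenomas, ran from 0.45 to 2.16 (median 1.05) in carcinomas and from 1.24 to 2.40 (median 1.90) in disseminated cells, and was 3.59, 3.53, 1.08, 1.32 and 1.40 in metastases. Metastases 1 and 2 lay above every other sample, while metastases 3, 4 and 5 lay within the carcinoma range. The log2 change of carcinomas against adenomas was -1.33 (95% interval -2.24 to -0.42) with a limma adjusted p of 0.0529, and it moved to either side of the threshold. It was -0.78 without normalization between arrays (adjusted p = 0.406). It passed with a normexp offset of 0, with dim genes left out, with only these 2 groups in the fit, without moderation and with the luminal list as a covariate (adjusted p from 0.0135 to 0.0458). With single arrays left out it ran from -1.54 to -1.2 (adjusted p from 0.036 to 0.112) and passed without carcinoma 1 or metastases 1, 2, 3 or 4. Metastases exceeded carcinomas by 1.09 (adjusted p = 0.0807), a change that fell to 0.74 without metastases 1 and to 0.75 without metastases 2 (adjusted p up to 0.247). It passed without carcinoma 1 or metastases 3 or 5 (1.29 to 1.36, adjusted p from 0.0412 to 0.0492), with the deposited ratios (1.35, adjusted p = 0.0443) and with the luminal list as a covariate (1.17, adjusted p = 0.0343).

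Jag2 and Dll4 passed in no comparison. Jag2 averaged -0.47 ± 0.68 (SD, n = 5) in adenomas, -0.59 ± 0.34 (SD, n = 6) in carcinomas, -1.08 ± 0.25 (SD, n = 6) in disseminated cells and -0.86 ± 0.44 (SD, n = 5) in metastases, and only 3 of 6 disseminated arrays were well above background. Dll4 averaged 0.20 ± 0.12, 0.36 ± 0.11, 0.33 ± 0.24 and 0.24 ± 0.13 in the same order. The endothelial list, whose cells use Dll4, rose in disseminated cells to 1.09 to 2.83 from -0.02 to 0.28 in adenomas, while the change of Dll4 between them was 0.13 (95% interval -0.09 to 0.34).

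Neither target gene passed the test in the progression experiment. Hes1 was 0.15, 0.03, -0.17, -0.95 and -0.62 in adenomas, ran from -1.48 to -0.62 (median -1.01) in carcinomas and from -0.93 to 0.93 (median -0.36) in disseminated cells, and was -0.55, 0.37, -1.03, -1.67 and -1.04 in metastases. Disseminated samples 5 and 6 and metastases 2 were the highest of the later samples, and all groups overlapped. The largest change, 0.85 between disseminated cells and carcinomas, had a 95% interval of 0.17 to 1.53 and a limma adjusted p of 0.0601.

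Hey1 was also split within the later groups. It was 2.67, 3.21, 2.81, 2.05 and 2.01 in adenomas and ran from 1.5 to 3.46 (median 2.66) in carcinomas. In disseminated cells it was -1.16, 0.14, -1.39, 2.73, 0.12 and 3.51 in replicates 1 to 6, and in metastases 3.97, 3.27, -0.88, 0.74 and 1.89. Disseminated samples 4 and 6 and metastases 1, 2 and 5 lay at or above the lowest primary tumor, and the other 6 samples below all of them. Between disseminated cells and carcinomas the log2 change was -1.92 (95% interval -3.62 to -0.22, limma adjusted p = 0.0882), which passed without disseminated sample 4 (-2.33, adjusted p = 0.0378) or 6 (-2.49, adjusted p = 0.0202) and fell to -1.51 without disseminated sample 3 (adjusted p = 0.198). With the luminal list as a covariate it was -0.49 (adjusted p = 0.736), and with the macrophage list -0.61 (adjusted p = 0.801). Hey1 stood at its highest in metastases 1, where Notch3 was 0.51.

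**Figure D5:**
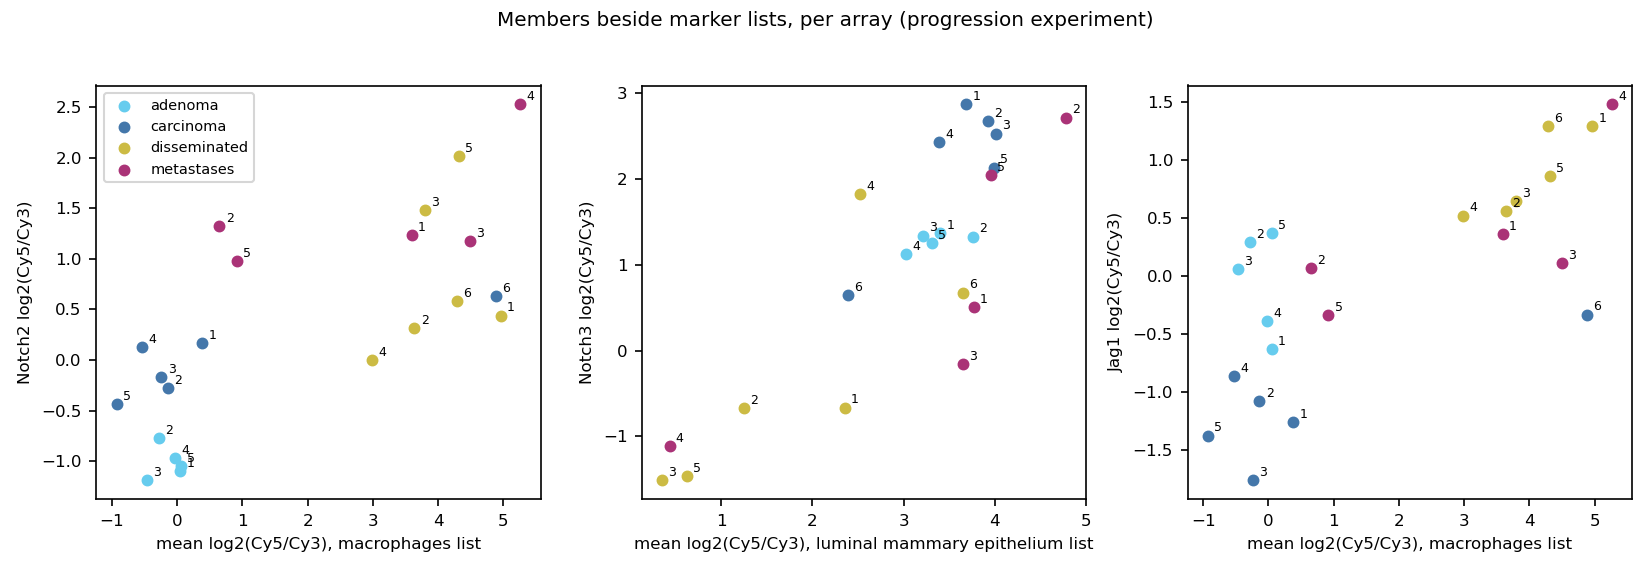
Level of Notch2, Notch3 and Jag1 (vertical axes, log2 ratio to the reference) against the mean log2 ratio of the macrophage or luminal epithelial list (horizontal axes) in the 22 arrays of the progression experiment, with replicate numbers. Arrays with a luminal mean under 1 have Notch3 levels under -1, but metastases 1 and 3 have low Notch3 at luminal means of 3.77 and 3.65. Metastases 4 has the highest macrophage mean together with the highest Notch2 and Jag1.

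Genes of other cell types also differed between the groups. On the macrophage list, between disseminated cells and adenomas 10 of 10 genes were higher past the test, with a median log2 change of 3.93, and between metastases and carcinomas 3 of 10 (median 2.04). The alveolar macrophage list (5 genes) averaged 0.05 in adenomas and 4.98 in disseminated cells, the neutrophil list (5 genes) 2.09 and 5.76, and the lung epithelial list (7 genes) 0.95 and 2.87. With the macrophage list as a covariate, members past the test numbered 0 of 10 between disseminated cells and adenomas, 1 between disseminated cells and carcinomas and 1 between metastases and carcinomas (Jag1 in both), while Notch1 and Notch2 still passed between metastases and adenomas. The macrophage means of adenomas (-0.46 to 0.06) and disseminated cells (2.98 to 4.96) do not overlap, so calls lost between them cannot separate the list from the group. Shares of all genes were not computed for these fits, so the counts are not results about the members. Without carcinoma 6 and metastases 4 the members past the test numbered 2, 4, 3, 3, 3 and 2 in the 6 comparisons, in the order given at the start of the progression results. The part of these cells in the levels of the members was not tested beyond these fits.

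The rest of the pathway was read from a list of 57 other genes, of which 55 are on the array: ligands, glycosyltransferases, proteases, nuclear partners, ubiquitin ligases and further targets. In the chemotherapy experiment 0 of 55 passed in each of the 3 comparisons, with median log2 changes of 0.04 to 0.05 against -0.004 to 0.015 over all genes. In the progression experiment 3 rose and 4 fell from adenomas to carcinomas (6.95 and 4.77% of all genes), 6 rose and 8 fell to disseminated cells (8.31 and 12.3%) and 7 rose and 11 fell to metastases (13.1 and 15.5%). Together the shares past the test were 12.7, 25.5 and 32.7%, against 11.7, 20.6 and 28.6% of all genes. From carcinomas 13 rose and 5 fell to disseminated cells (9.17 and 17.4% of all genes) and 8 rose and 7 fell to metastases (7.99 and 14%), and from disseminated cells to metastases 5 rose and 4 fell (6.93 and 6.13%). These 3 shares past the test were 32.7, 27.3 and 16.4%, against 26.6, 22 and 13.1% of all genes.

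Between disseminated cells and adenomas the glycosyltransferase Mfng rose by 2.41 (limma adjusted p = 0.00776), the gamma-secretase subunit Aph1b by 2.17 (adjusted p = 0.00362) and the metalloprotease Adam17 by 1.32 (adjusted p = 0.0102). The corepressor Ctbp2, the ubiquitin ligase subunit Fbxw7 and the acetyltransferase Kat2a fell by 0.90, 0.89 and 0.81 (adjusted p = 0.00712, 0.0153 and 0.00744). Against carcinomas Mfng rose by 2.08, the acetyltransferase Ep300 by 2.00 and Rbpj, the DNA-binding partner of all Notch receptors, by 1.69 (adjusted p = 0.00994, 0.000152 and 0.000739). The target Hes6, the gamma-secretase subunit Psenen and Fbxw7 fell by 1.01, 0.93 and 0.85.

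In carcinomas Ep300, Rbpj and the corepressor Cir1 lay below adenomas by log2 changes of -1.73, -1.05 and -1.0 (limma adjusted p = 0.00188, 0.0398 and 0.00407), and Psenen, Hes6 and Hes3 above them by 0.68, 0.59 and 0.38. In metastases Aph1b, the coactivator Crebbp and the divergent ligand Dll3 exceeded adenomas by 2.06, 1.46 and 1.03 (adjusted p = 0.00345, 0.00068 and 0.000226), and Ep300, the fucosyltransferase Pofut1 and the ligand-like Dlk1 fell by 1.69, 1.58 and 1.19. Against carcinomas Crebbp, Kat2b and Hdac2 were higher in metastases by 1.58, 1.40 and 1.19, and Psenen, Adam17 and Pofut1 fell by 1.18, 1.14 and 1.09. Against disseminated cells Aph1a, Snw1 and the ligand-activating Mib1 were higher by 1.0, 0.78 and 0.77, and Adam17, Ep300 and Aph1c lower, with log2 changes of -2.02, -1.96 and -0.96. Every change of Ep300 and Rbpj named here or in the paragraph before is between groups scanned on different days. Slide and group cannot be told apart there, so these changes are not read as changes of stage. The same holds for every other gene and member in comparisons of groups scanned on different days. Mfng and Adam17 are also expressed in leukocytes. Between disseminated cells and adenomas, where both genes rose, the macrophage and neutrophil lists rose, but the T and NK cell list had a median change of 0.06. Between metastases and carcinomas Adam17 fell although the macrophage list rose (median 2.04). The part of those cells was not tested.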

How the data were processed

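Arrays were Agilent two-color designs scanned by the authors and read with Agilent Feature Extraction 10.7, per the labels. The authors deposited spot intensities (mean signal and median local background of each channel) as scanned, and a series matrix of log2 ratios of sample over reference; the study names limma, normexp, loess and quantile normalization for its analysis. In both experiments these log2 ratios correlated with those computed here at 0.966 to 0.998 per array, with slopes of 0.94 to 1.09, which settles their scale and direction, and column medians ran from 0.00472 to 0.0526. Cy5 held the sample on every array and dyes were not swapped.

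Following the study's methods, intensities were corrected with normexp (offset 50, set here), normalized with loess within arrays and quantile between the arrays of an experiment, and outlier spots were left out. Spots of a probe were averaged, 0 of the member probes lost a value, and the brightest probe stood for its gene. RefSeq accessions named 22951 probes and the files the other 18223. A limma model (version 3.58.1, under R 4.3.3) took the groups of each experiment together with no covariate, and p-values were adjusted by Benjamini-Hochberg over 28786 genes. The packages statmod (1.5.0) and data.table (1.17.8) were also loaded. The fit was tested on simulated data. Precision is set by the number of arrays.

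The members, the pathway and marker lists and the alternatives were chosen with earlier results of these data known. The text names all members, of the pathway list the 3 largest rises and falls past the test in each comparison, and the 3 genes most like the member with the widest range of group means. Marker lists covered luminal and basal epithelium, endothelium, pericytes, fibroblasts, erythroid cells, lung epithelium, B cells, T and NK cells, neutrophils and macrophages, alveolar ones included. RT-PCR data were not analysed here.

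Alternatives were a normexp offset of 0, the scanner's processed signals, median centring, Aquantile or no normalization between arrays, all 38 arrays normalized together, the deposited log2 ratios, dim genes left out (not well above background on at least 50% of the arrays of either group), outlier spots kept, every probe, the mean of probes, a fixed or a random block for slide, a replicate block, only the groups compared, the test without moderation, an adjusted p below 0.01 and each array left out. Marker lists as covariates and the omission of carcinoma 6 and metastases 4 together were added after the data were seen.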

Additional observations from a re-analysis of the deposited data

Results flagged for a closer look

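In 70 groups of values (10 members in 7 groups of 4 to 6 arrays) a single array lay far from the rest of its group 3 times, and chance gives about 1 in 20 such groups. Notch3 stood at 0.643 in carcinoma 6, against 2.13 to 2.87 in the other carcinomas. Notch2 stood at 2.53 in metastases 4, against 0.98 to 1.33 in the other metastases. Dll1 stood at 1.80 in adenoma 3, against 2.45 to 2.68 in the other adenomas. Carcinoma 6 and metastases 4 are the arrays with the highest macrophage means of their groups, 4.89 and 5.26.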

How the results depend on the processing

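In the chemotherapy experiment all 3 counts of members past the test stayed at 0 under every alternative run, and 0 to 0 with each array left out. None of the log2 changes recomputed under the alternatives changed sign. In the progression experiment the count between carcinomas and adenomas (3) was 1 with Aquantile, with no normalization between arrays, with the deposited log2 ratios and with the mean of the probes, 0 at an adjusted p below 0.01, and 5 with only the 2 groups compared, with the test without moderation and with the luminal list as a covariate. Aquantile leaves the ratios as they are without normalization between arrays. Between disseminated cells and adenomas (3) it was 1 with the replicate block, with the luminal covariate and at the 0.01 threshold, and 0 with the macrophage covariate. Between disseminated cells and carcinomas (2) it was 4 with dim genes left out and 1 with the macrophage covariate. Between metastases and carcinomas (3) it was 1 with the macrophage and 5 with the luminal covariate. Between metastases and disseminated cells (1) it was 0 with only the 2 groups compared and with the test without moderation, and 2 with the luminal covariate or without carcinoma 6 and metastases 4. Between metastases and adenomas it was 2 or 3 throughout. The cause of these shifts was not tested. Shares of all genes past the test were computed for the main fit only. The counts under the alternatives and with arrays left out are therefore not results about the members.

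With each array left out in turn the counts ran from 0 to 5 between carcinomas and adenomas (0 without adenoma 3 or 5 or carcinoma 3, 5 without metastases 2), 1 to 4 between disseminated cells and adenomas (1 without adenoma 1 or disseminated sample 5), 2 to 3 between metastases and adenomas, 2 to 4 between disseminated cells and carcinomas (4 without disseminated sample 2 or 4 or metastases 4), 3 to 4 between metastases and carcinomas and 1 to 2 between metastases and disseminated cells (2 without disseminated sample 5 or metastases 4).

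The replicate numbers of the labels were not used as pairs in the main fit. Deviations from the group mean of same-numbered arrays correlated at -0.414 to 0.424 in the chemotherapy experiment (6 of 14 pairs over 0.1) and at -0.413 to 0.325 in the progression experiment (8 of 31). The best match in another group had the same number for 6 of 16 chemotherapy arrays and 1 of 22 progression arrays. Whether the numbers pair the chemotherapy arrays is thus not settled. With the replicate block the counts were 0, 0 and 0 in the chemotherapy comparisons and 2, 1, 3, 2, 3 and 1 in the progression comparisons, in the order of the report. Jag2 and Dll4 were not well above background on some arrays of several groups, which limits what their ratios can show.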
